A study of Mus musculus with 12 samples.

Results

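The sialyltransferases described here are 10 genes of the family that caps sugar chains with sialic acid: St6galnac2, St6galnac3, St6galnac4, St6galnac6, St6gal1, St3gal1, St3gal2, St3gal6, St8sia1 and St8sia6. Every probe set whose platform annotation names 1 of these genes and no other was taken, which gave 26 of the 45037 probe sets tested, for 10 of 18193 genes named in this way, between 1 (St6galnac6) and 5 (St3gal6) per gene. The family was chosen on the measured levels of St6galnac2, which was higher in NOD and, in NOD alone, lower in Treg than in Tconv, so the values of St6galnac2 are given as a description with no test. The other 24 probe sets, of 9 genes, were read in the same comparisons, each with a p-value adjusted over all 45037. The 10 members were picked with earlier results of these data known. RNA came from splenic T cells of mice aged 6 weeks, of the diabetes-prone NOD strain or of B6.H2g7, written B6g7 here, a B6 line congenic for the NOD-type MHC haplotype H2g7. Regulatory T cells (Treg) were sorted as CD4+CD25hi after magnetic enrichment for CD25, and conventional T cells (Tconv) as CD4+CD25-, both without CD8a, CD11b, CD69 and B220. Each population of each strain had 3 arrays, 12 in all, and each array took pooled RNA of 3 mice. The sort leaves out CD69+ cells and, in Treg, cells of low CD25, so the groups stand for the gated cells of pooled spleens.

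Sialyltransferases work in the Golgi, where they move sialic acid from its activated nucleotide form, CMP-sialic acid, to the end of a growing glycan. The St3gal and St6gal enzymes attach it to galactose through different carbon atoms, the St6galnac enzymes to N-acetylgalactosamine, and the St8sia enzymes to a sialic acid that is already there. On T cells these caps affect which lectins can bind. Depending on its linkage, sialic acid can hide galactose from some galectins and from peanut agglutinin. It also forms ligands of siglecs and is part of the selectin ligands used in homing.

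The arrays followed their labels. Foxp3, the transcription factor of Treg cells, lay between 10.67 and 11.26 (log2 intensity) in the 6 Treg arrays and between 5.57 and 6.24 in the 6 Tconv arrays. All 5 Treg markers were called higher in Treg of both strains; between strains in Tconv, 2 of the 5 were called higher in NOD (Ikzf2 by 0.76 and Tnfrsf18 by 0.62), with 5-gene intensity sums of 1736 to 2121 in NOD Tconv and 1113 to 1322 in B6g7 Tconv, while Foxp3, Il2ra and Ctla4 did not pass. The part of these markers in the Tconv strain differences below was not tested. Restained Treg cells were 94%, 96% and 96% Foxp3+ in B6g7 and 89%, 95% and 95% in NOD, per the labels. The median intensity of an array was 83.9 to 88.6, and arrays of a group correlated with r between 0.983 and 0.9962. The deposited values hold no detection calls, so a group mean under 5.28, the 25th percentile of all probe set means, is called dim. For actin, the control for RNA integrity, the 3' probe set exceeded the 5' one by 2.66 to 4.7, with the lowest values of NOD Tconv (2.97), NOD Treg (3.29) and B6g7 Treg (2.66) all in replicate 1. Of 7 measured B cell markers 1 (Cd79b) was higher in Treg, and of 4 plasma cell markers 1 (Xbp1); none of the measured CD8, NK, monocyte, dendritic, neutrophil and erythroid markers was called in any comparison. In bulk RNA, fewer cells that express a gene and less RNA per cell cannot be told apart.

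St6galnac2, which adds sialic acid to the N-acetylgalactosamine of O-glycans on proteins, had its highest level in NOD Tconv. Probe set 1417616_at read 9.44, 9.33 and 9.49 in NOD Tconv and 7.91, 7.96 and 7.96 in NOD Treg (log2 intensity, replicates 1 to 3). In B6g7 it read 5.99, 6.09 and 5.86 in Tconv and 6.19, 6.41 and 6.58 in Treg. The order of the levels was NOD Tconv, NOD Treg, B6g7 Treg and B6g7 Tconv, and no neighbouring groups overlapped. The mean in NOD Tconv was 9.42 ± 0.08 (SD, n = 3) against 5.98 ± 0.12 in B6g7 Tconv, a 10.9-fold difference (log2 difference 3.44 ± 0.11, SE of the fit). In Treg the strains were 2.93-fold apart, at 7.94 ± 0.03 in NOD and 6.39 ± 0.19 in B6g7 (1.55 ± 0.11). From Tconv to Treg the level changed by -1.48 ± 0.11 in NOD and by 0.41 ± 0.11 in B6g7. These are the values that chose the family.

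The second St6galnac2 probe set, 1417617_at, did not repeat this order of levels. The platform annotation gives the same accession for both probe sets, BC010208. 1417617_at stayed between 5.16 and 5.64 in all 12 arrays, close to the dim level, with means of 5.55 and 5.32 in Tconv and Treg of B6g7 and 5.47 and 5.57 in those of NOD. NOD minus B6g7 was -0.08 ± 0.10 in Tconv and 0.25 ± 0.10 in Treg. In Treg the NOD arrays (5.56, 5.56 and 5.60) lay above those of B6g7 (5.16, 5.35 and 5.46). The strain pattern of St6galnac2 therefore rests on 1 of its 2 probe sets.

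**Figure D1:**
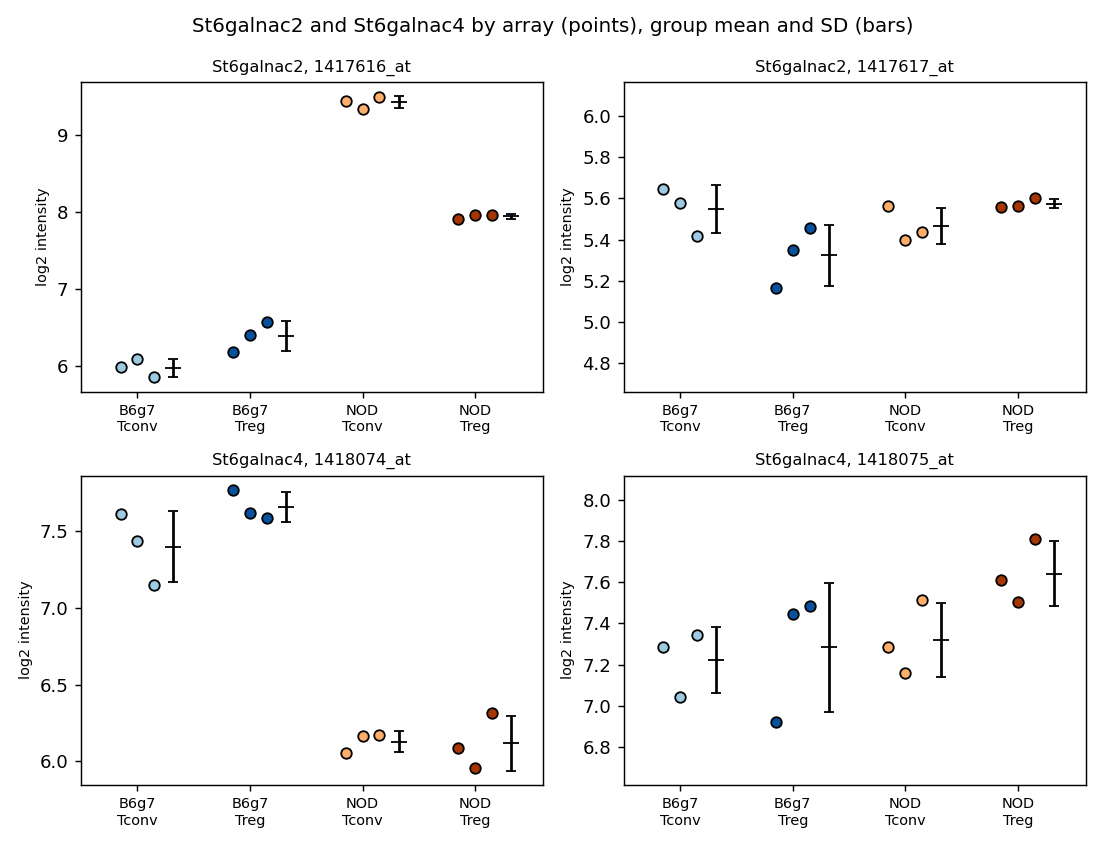
Log2 intensity (y axis) of both St6galnac2 and both St6galnac4 probe sets in the 4 groups (x axis); points are arrays in the order of replicates 1 to 3, and the bar beside them is the group mean with its SD (n = 3). St6galnac2 1417616_at stands at 9.33 or above in NOD Tconv and at 6.58 or below in B6g7, while St6galnac4 1418074_at stands at 6.31 or below in NOD and at 7.15 or above in B6g7; the second probe set of each gene does not separate the strains in this way.

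Of 15372 genes that were not dim on average, the 5 closest to St6galnac2 in their centred group means were Prelid2, Cxcr4, Tmem87a, Zfp982 and AI506816. The measure was the root mean square difference of the 4 centred group means, each gene at its brightest probe set, which was 0.356 for Prelid2 and 0.384 for Cxcr4 (log2). Prelid2 had means of 6.35 and 7.04 in B6g7 Tconv and Treg and of 9.10 and 8.28 in NOD. Cxcr4, the receptor of the chemokine CXCL12, had means of 6.59 and 6.51 in B6g7 Tconv and Treg and of 9.65 and 9.05 in NOD. Tmem87a, Zfp982 and AI506816 differed from St6galnac2 by 0.487, 0.495 and 0.496. All 5 genes, Prelid2 and Cxcr4 included, had a smaller drop from NOD Tconv to NOD Treg than St6galnac2. The likeness was sought in the values and is a description.

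St6galnac4 was lower in NOD than in B6g7 by 1 of its 2 probe sets. The enzyme adds a further sialic acid to sialylated O-glycans and glycolipids. Probe set 1418074_at read 7.61, 7.43 and 7.15 in B6g7 Tconv and 7.77, 7.62 and 7.59 in B6g7 Treg, against 6.05, 6.16 and 6.17 in NOD Tconv and 6.08, 5.96 and 6.31 in NOD Treg. All 6 NOD arrays lay below all 6 B6g7 arrays, and Tconv and Treg of NOD overlapped. In Tconv it was 2.41-fold lower in NOD (-1.27 ± 0.13, SE, n = 3 per group, limma adjusted p = 5.84e-05) and in Treg 2.90-fold lower (-1.54 ± 0.13, limma adjusted p = 1.04e-05). Leaving out any 1 of the 12 arrays kept both calls, the limma adjusted p reaching 0.00064 in Tconv and 0.000102 in Treg.

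The other St6galnac4 probe set did not repeat the difference. 1418075_at read 7.29, 7.04 and 7.34 in B6g7 Tconv, 7.28, 7.16 and 7.51 in NOD Tconv, 6.92, 7.45 and 7.48 in B6g7 Treg and 7.61, 7.50 and 7.81 in NOD Treg, so the strains overlapped in Tconv and in Treg the NOD arrays lay above. Its NOD minus B6g7 values, 0.10 (limma adjusted p = 0.906) in Tconv and 0.36 (limma adjusted p = 0.427) in Treg, had the opposite sign and did not pass. With the 2 probe sets averaged, the St6galnac4 mean was lower in NOD by 0.59 in both populations (-0.59, limma adjusted p = 0.0086 in Tconv and 0.00778 in Treg). That mean joins the fall of the probe set described first to the opposite sign of the other, so it is not separate evidence for the gene. Whether NOD sequence under the probes affects the strain differences of St6galnac2, St6galnac4 and St8sia1, whose probe sets disagree, was not tested. The protein-coding gene next to St6galnac4 on the chromosome in the GRCm38.p6 RefSeq table is St6galnac6, a ganglioside sialyltransferase. Its probe set 1423115_at lay between 6.66 and 7.03 in all 12 arrays, with NOD minus B6g7 at -0.05 (95% interval -0.27 to 0.18) in Tconv and -0.08 (-0.31 to 0.14) in Treg.

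St8sia1, which makes the ganglioside GD3, also differed by strain in a way that depended on the probe set. Its brightest probe set 1455695_at read 9.60, 9.94 and 9.53 in B6g7 Tconv and 7.55, 8.27 and 8.39 in NOD Tconv, which do not overlap. It was 3.07-fold lower in NOD Tconv (-1.62 ± 0.25, limma adjusted p = 0.00201). In Treg it read 8.15, 8.79 and 8.07 in B6g7 and 7.34, 7.94 and 7.90 in NOD, a difference of -0.61 that did not pass (limma adjusted p = 0.365). For 1419695_at the strain difference was -0.31 in Tconv (limma adjusted p = 0.473) and 0.17 in Treg (limma adjusted p = 0.851). The third, 1419694_at, was higher in NOD Treg (7.26, 7.17 and 7.30) than in B6g7 Treg (6.79, 6.52 and 6.84), by 0.53 ± 0.11 (limma adjusted p = 0.0185). That last call was lost with only the compared arrays (adjusted p = 0.0655) and without B6g7 Treg replicate 2 (adjusted p = 0.0848), NOD Treg replicate 1 (0.0625) or NOD Treg replicate 3 (0.0872).

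Between strains, 2 of the 24 probe sets were called in Tconv, both lower in NOD (St6galnac4 1418074_at and St8sia1 1455695_at), which is 8.33%, against 2.96% of all probe sets (1.31% higher, 1.65% lower). In Treg 1 was lower (St6galnac4 1418074_at) and 1 higher (St8sia1 1419694_at), again 8.33%, against 3.26% (1.6% higher, 1.66% lower). The members were picked with earlier results of these data known, so these shares are a description. The sialyltransferases outside the members gave 5.56% by probe set in Tconv and in Treg. The median NOD minus B6g7 difference of the 24 was -0.03 in Tconv and 0.01 in Treg (log2), and that of all probe sets 0.02 and 0.00. Counted by gene at the brightest probe set, 1 of 9 genes (St8sia1) was lower in NOD Tconv. In Treg limma called 0 of 9, with 2 at an unadjusted p under 0.05, beside 4732 of all 45037 probe sets. Probe sets of a gene read the same transcripts or parts of them, so they are not separate observations. Leaving out B6g7 Treg replicate 2, NOD Treg replicate 1 or NOD Treg replicate 3 lowered the Treg count to 1. So did the fit on the compared arrays alone and each fit without a replicate number.

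**Figure D2:**
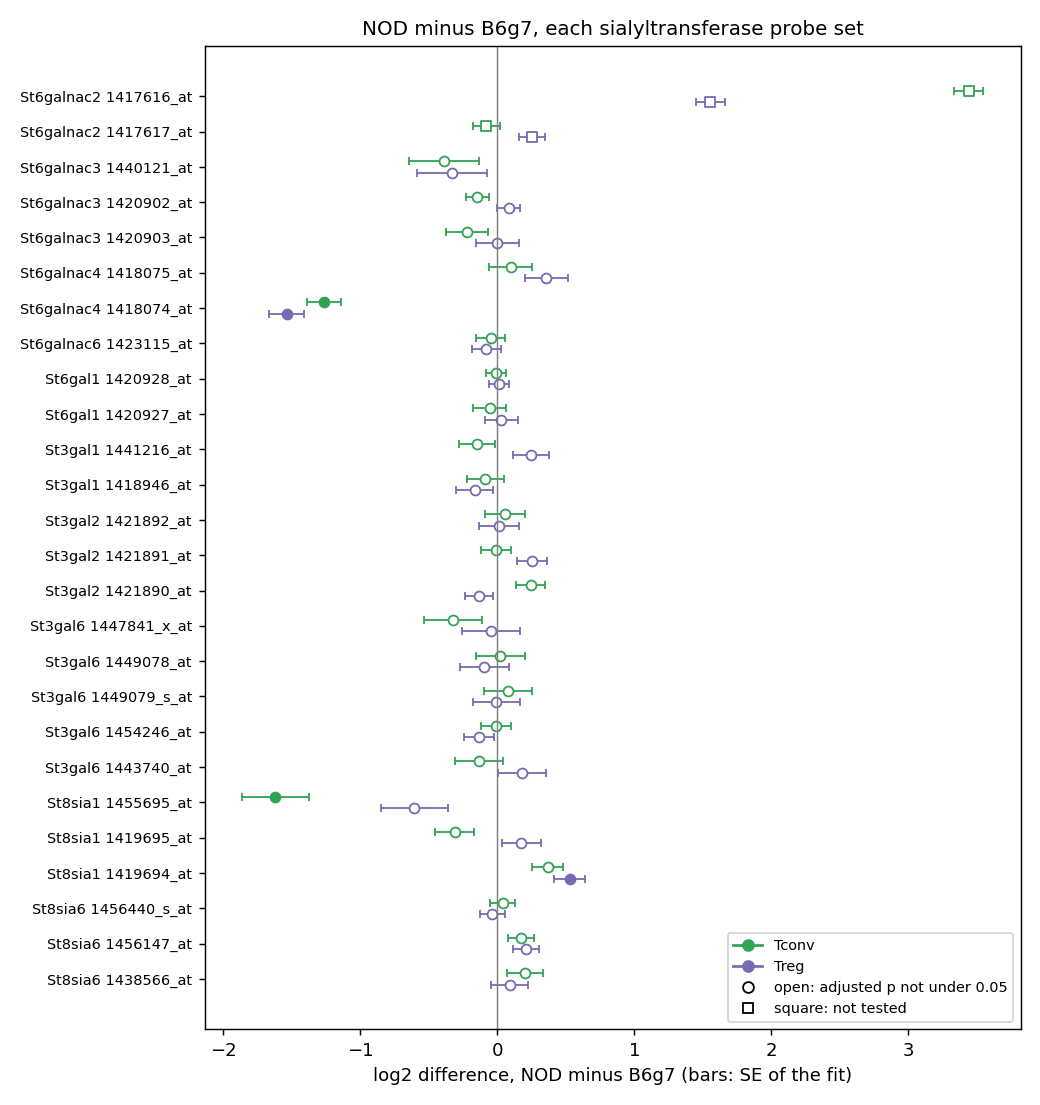
NOD minus B6g7 log2 difference (x axis) of each of the 26 probe sets (y axis) in Tconv (green) and Treg (purple); bars are the SE of the fit, filled points passed the test, open points did not, and the squares of St6galnac2 were not tested. St6galnac2 1417616_at lies to the right at 3.44 and 1.55, St6galnac4 1418074_at to the left at -1.27 and -1.54, and the 21 tested probe sets that passed in neither population lie nearer 0, between -0.39 and 0.36.

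From Tconv to Treg, a pair of sialyltransferases rose and a pair fell in both strains. St6galnac3 and St3gal2 were higher in Treg, St3gal6 and St8sia1 lower, each by at least 1 probe set called in B6g7 and in NOD. In B6g7, 3 probe sets were called higher and 4 lower, 29.2% of 24, against 3.37% of all probe sets (2.04% higher, 1.34% lower). In NOD 4 were called higher and 3 lower, also 29.2%, against 3.2% of all (2.09% higher, 1.11% lower). Averaged over the strains 4 were higher and 6 lower, 41.7%, against 5.84% of all (3.45% higher, 2.4% lower). By probe set, the sialyltransferases outside the members gave 5.56% in B6g7, 0% in NOD and 5.56% averaged. The members were picked with earlier results of these data known. Their share beside that of all probe sets is therefore no test of the family. The medians of the 24 were -0.11 in B6g7 and -0.03 in NOD (log2 change), beside 0.00 and -0.02 for all probe sets, since rises and falls were mixed. Counted by gene at the brightest probe set, 2 of 9 genes were higher in B6g7 and 2 lower, St3gal1 and St8sia1 (44.4%). In NOD 2 were higher and 0 lower (22.2%). The fall of St3gal6 in both strains and that of St8sia1 in NOD rest on probe sets that were not the brightest of their gene. With the mean over each gene's probe sets, St6galnac3, St3gal2 and St3gal6 passed in both strains, and St8sia1 passed in B6g7 (-0.94) and not in NOD (-0.39, limma adjusted p = 0.0957). The NOD count fell to 4 of 24 without NOD Tconv replicate 1, NOD Tconv replicate 3 or NOD Treg replicate 2. Without all 4 arrays of a replicate number, 4 or 5 were called in B6g7 and 3 to 5 in NOD.

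St6galnac3, which like St6galnac4 adds sialic acid to already sialylated glycans, had the largest rise of the 10 genes. Probe set 1440121_at read 6.70, 6.67 and 6.46 in B6g7 Tconv and 8.45, 7.71 and 8.45 in B6g7 Treg. In NOD it read 6.30, 5.98 and 6.38 in Tconv and 8.38, 7.26 and 7.97 in Treg. Every Treg array lay above every Tconv array of both strains, and replicate 2 was the lowest of each Treg group. The level was 3.02-fold higher in Treg of B6g7 (1.60 ± 0.26, limma adjusted p = 0.00279) and 3.14-fold higher in NOD (1.65 ± 0.26, limma adjusted p = 0.00233). Without any 1 array both calls passed; without the 4 arrays of replicate 3 neither did (adjusted p = 0.177 in B6g7 and 0.092 in NOD, at 1.40 and 1.68). Of its other probe sets, 1420903_at was higher in NOD Treg (0.69, limma adjusted p = 0.0272, from a dim level in Tconv; 0.0524 with the pseudocount) and at 0.47 in B6g7 (limma adjusted p = 0.172; 0.0316 with the replicate number as a block). The NOD call of 1420903_at was lost without any 1 of 5 NOD arrays, with adjusted p between 0.0509 (NOD Treg replicate 2) and 0.13 (NOD Treg replicate 3), and of the NOD arrays it held without NOD Treg replicate 1 alone. The third, 1420902_at, was at -0.19 and 0.03 and did not pass.

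St3gal2, which sialylates galactose on gangliosides and O-glycans, rose by 2 of its 3 probe sets. 1421891_at read 6.34, 5.89 and 6.24 in B6g7 Tconv and 6.95, 6.88 and 6.94 in B6g7 Treg, and 6.13, 6.22 and 6.07 in NOD Tconv and 7.12, 7.14 and 7.25 in NOD Treg. No Treg array overlapped a Tconv array. The rise was 1.70-fold in B6g7 (0.77 ± 0.11, limma adjusted p = 0.00111) and 2.04-fold in NOD (1.03 ± 0.11, limma adjusted p = 0.000104). 1421892_at gave 0.77 in B6g7 (limma adjusted p = 0.00889) and 0.73 in NOD (limma adjusted p = 0.0134). Its NOD call was lost without NOD Tconv replicate 1 (adjusted p = 0.0519), NOD Tconv replicate 3 (0.0714), NOD Treg replicate 1 (0.0578) or NOD Treg replicate 2 (0.0664). Without the 4 arrays of replicate 1 or of replicate 2, its calls in both strains were lost. The limma adjusted p was then 0.0814 and 0.173 in B6g7, and 0.0886 and 0.203 in NOD. 1421890_at, at 0.29 and -0.09, did not pass.

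St3gal6, which makes sialylated galactose ends used in selectin ligands, had the largest fall. Probe set 1449078_at read 7.44, 7.79 and 7.20 in B6g7 Tconv and 5.89, 5.82 and 5.86 in B6g7 Treg. In NOD it read 7.72, 7.62 and 7.15 in Tconv and 5.58, 5.63 and 6.08 in Treg. The highest Treg array, at 6.08, was below the lowest Tconv array, at 7.15. The fall was 3.07-fold in B6g7 (-1.62 ± 0.18, limma adjusted p = 0.000149) and 3.33-fold in NOD (-1.74 ± 0.18, limma adjusted p = 8.51e-05). The strains did not separate: NOD minus B6g7 was 0.02 (95% interval -0.37 to 0.41) in Tconv and -0.10 (-0.49 to 0.30) in Treg.

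The other 4 St3gal6 probe sets fell less or did not pass. 1449079_s_at was at -0.63 in B6g7 (limma adjusted p = 0.0827; 0.0221 with the replicate block) and -0.71 in NOD (limma adjusted p = 0.0439). That NOD call was lost without any 1 of the 6 NOD arrays, B6g7 Tconv replicate 1 or B6g7 Treg replicate 2 (adjusted p between 0.0552 and 0.198), and with quantile normalization, median centring or the pseudocount. 1454246_at, dim in all groups, was lower averaged over strains (-0.32, limma adjusted p = 0.0273), a call that held in 4 of the 12 fits without 1 array (highest adjusted p 0.0768, without B6g7 Treg replicate 2); in NOD it was at -0.38 (limma adjusted p = 0.102; 0.0373 with the replicate block). 1447841_x_at, at -0.33 and -0.05, and 1443740_at, dim in all groups, did not pass. The endings _s_at and _x_at mark probe sets whose probes can match other transcripts as well.

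St8sia1 fell in Treg by 2 of its 3 probe sets. 1419695_at read 8.75, 8.39 and 8.35 in B6g7 Tconv and 7.40, 7.20 and 7.20 in B6g7 Treg, and 7.98, 8.06 and 8.51 in NOD Tconv and 7.44, 7.41 and 7.46 in NOD Treg. Treg lay below Tconv in every array, by 2.35-fold in B6g7 (-1.23 ± 0.14, limma adjusted p = 0.000215) and 1.68-fold in NOD (-0.75 ± 0.14, limma adjusted p = 0.0102). 1455695_at, with the values given above, fell by 1.35 on the log2 scale in B6g7 (-1.35 ± 0.25, limma adjusted p = 0.0071), while in NOD its groups overlapped (-0.34 ± 0.25, limma adjusted p = 0.77). 1419694_at was at -0.23 in B6g7 and -0.07 in NOD and did not pass. Without the 4 arrays of replicate 2 or of replicate 3, 1419695_at did not pass in NOD (adjusted p = 0.222 and 0.133), nor 1455695_at in B6g7 (0.063 and 0.136).

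St3gal1 caps the core O-glycans of CD43 and CD45, heavily glycosylated T cell surface proteins. Its brightest probe set 1441216_at read 8.29, 7.88 and 8.11 in B6g7 Tconv and 7.24, 7.50 and 7.64 in B6g7 Treg, a fall of 1.55-fold (-0.63 ± 0.13, limma adjusted p = 0.0155). The call was lost without B6g7 Tconv replicate 1 (adjusted p = 0.0781), B6g7 Tconv replicate 3 (0.052) or B6g7 Treg replicate 1 (0.0609), with only the compared arrays (0.0931), with the mean over both probe sets (0.0609, at -0.45) and without the 4 arrays of replicate 1, 2 or 3 (0.183, 0.117 and 0.113). In NOD it read 7.91, 7.86 and 8.06 in Tconv and 7.56, 7.77 and 7.78 in Treg, which did not pass (-0.24, limma adjusted p = 0.604). The other St3gal1 probe set, 1418946_at, was at -0.27 and -0.34 (limma adjusted p = 0.497 and 0.323).

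**Figure D3:**
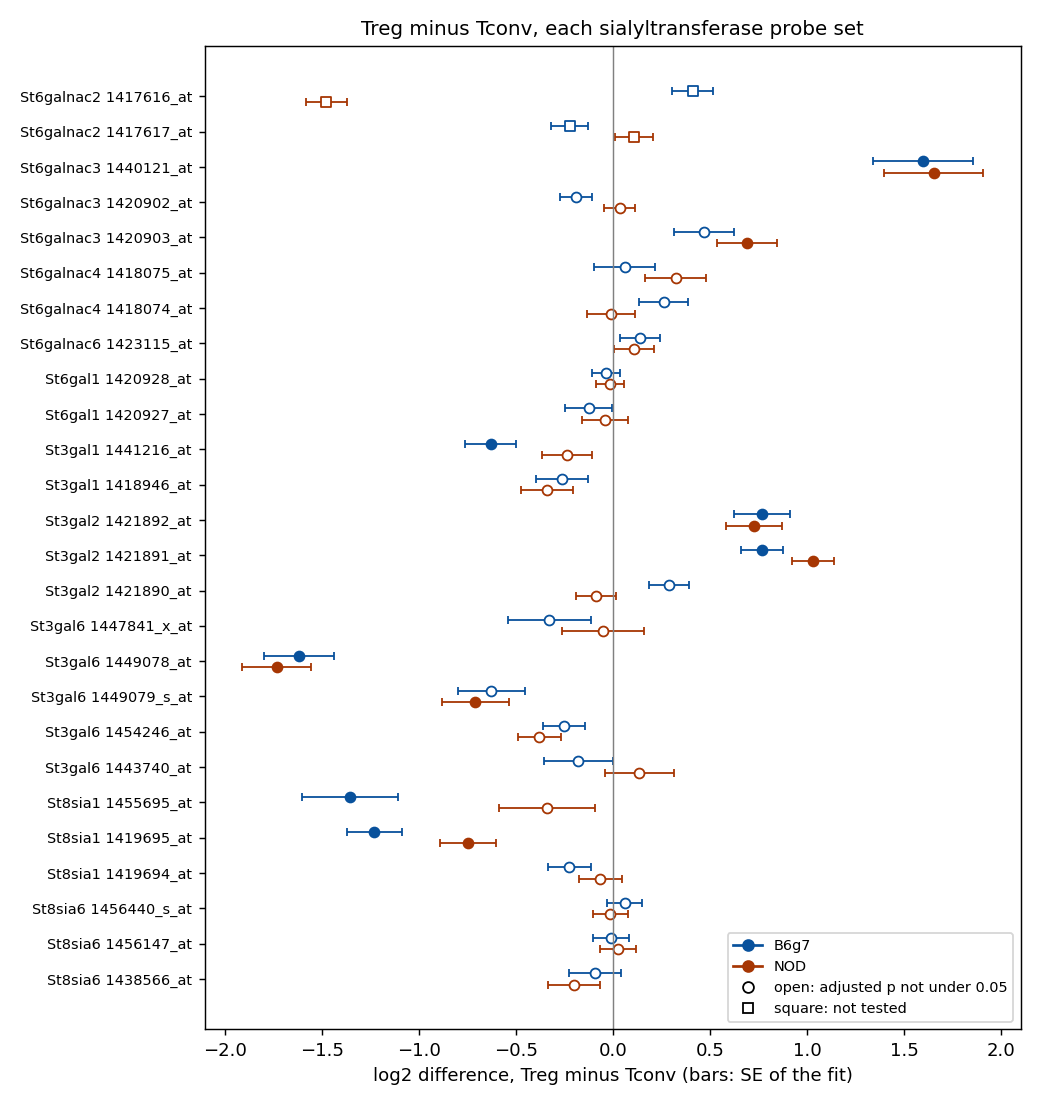
Treg minus Tconv log2 difference (x axis) of each of the 26 probe sets (y axis) in B6g7 (blue) and NOD (brown); bars are the SE of the fit, filled points passed the test, open points did not, and the squares of St6galnac2 were not tested. St6galnac3 1440121_at lies at 1.60 and 1.65 and St3gal6 1449078_at at -1.62 and -1.74, whereas St6galnac2 1417616_at lies at 0.41 in B6g7 and -1.48 in NOD.

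**Figure D4:**
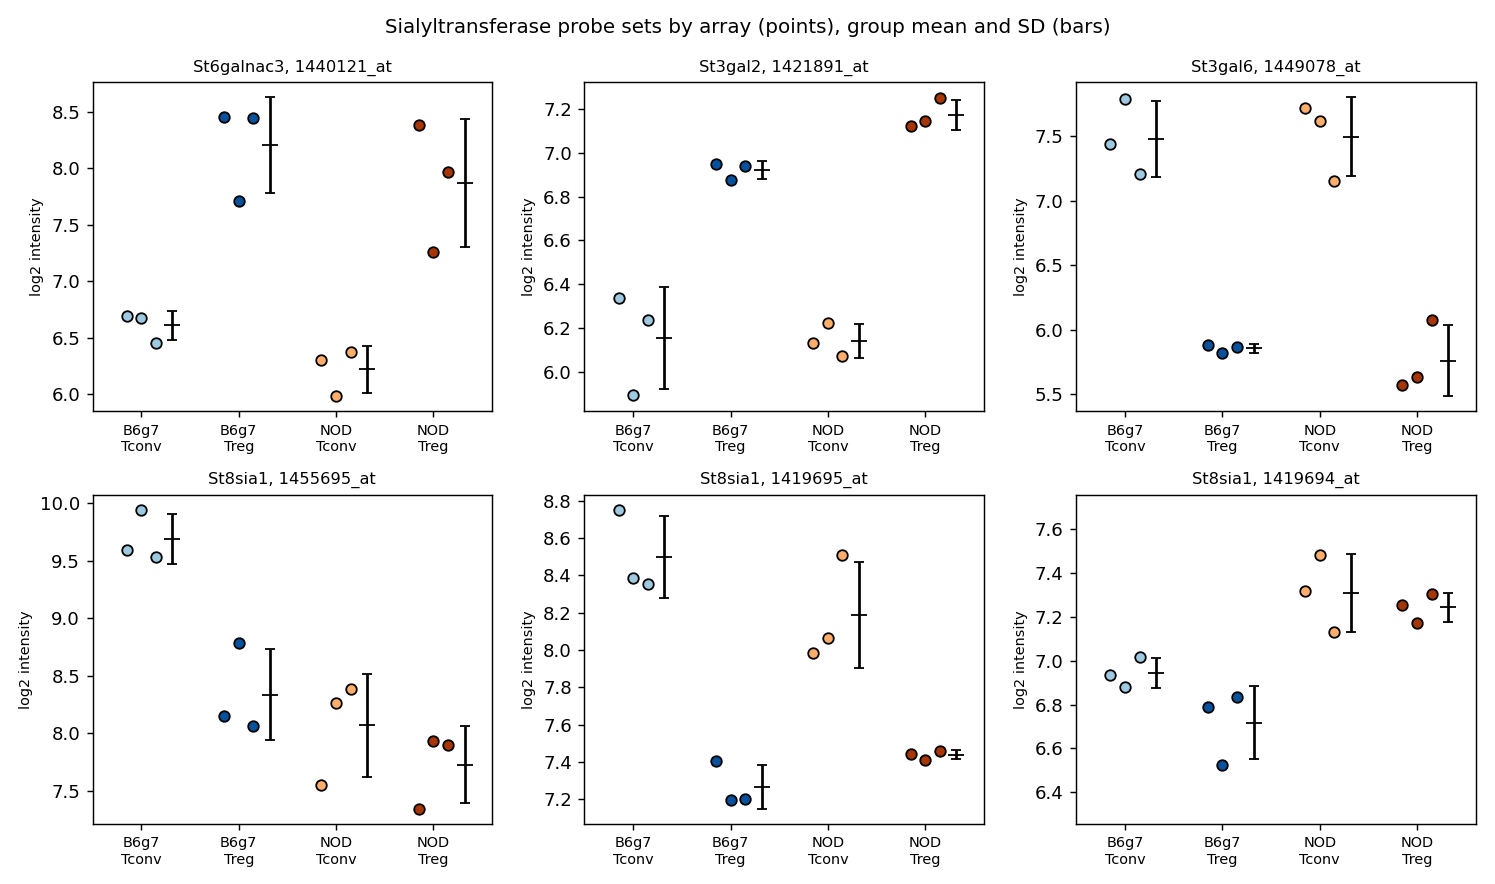
Log2 intensity (y axis) of 6 probe sets in the 4 groups (x axis); points are arrays in the order of replicates 1 to 3, and the bar beside them is the group mean with its SD (n = 3). St6galnac3 1440121_at and St3gal2 1421891_at are higher and St3gal6 1449078_at is lower in Treg of both strains without overlap. For these 3 genes the probe set with the lowest limma p averaged over strains was drawn, so it was picked on the difference shown. St6galnac3 1420902_at, St3gal2 1421890_at and St3gal6 1447841_x_at, which are not drawn, passed in neither strain. The 3 St8sia1 probe sets differ among themselves in how B6g7 and NOD compare.

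By a probe set called in both strains, St6galnac3 rose and St3gal6 and St8sia1 fell in Treg. In NOD the other St8sia1 probe sets did not pass. The sequences upstream of these 3 genes are shown for that reason. They are the 250 bases before each start site, 5′ to 3′ on the gene's strand, from the RefSeq promoter table of GRCm38.p6, a C57BL/6J assembly, which held 7 of the 10 genes; NOD sequence was not used here. Capitals mark matches, on either strand, to any of 6 motifs. The motifs were the Runx core TGTGGT, the forkhead site GTAAACA, the STAT site TTCNNNGAA, the Ets core CCGGAA, the TATA box TATAAA and the GC box GGGCGG.
St6galnac3, chr3:153725134-153725383, minus strand: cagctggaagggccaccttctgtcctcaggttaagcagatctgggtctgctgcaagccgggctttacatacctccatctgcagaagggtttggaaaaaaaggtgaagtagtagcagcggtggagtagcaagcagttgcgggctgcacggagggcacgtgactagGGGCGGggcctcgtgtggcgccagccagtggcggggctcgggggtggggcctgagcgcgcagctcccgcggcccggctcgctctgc
St8sia1, chr6:142964453-142964702, minus strand: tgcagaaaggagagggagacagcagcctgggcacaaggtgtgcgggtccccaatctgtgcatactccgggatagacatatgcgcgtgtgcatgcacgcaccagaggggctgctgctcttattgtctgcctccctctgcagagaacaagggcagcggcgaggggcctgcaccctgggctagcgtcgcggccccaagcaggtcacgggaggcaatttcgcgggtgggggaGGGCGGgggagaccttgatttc
St3gal6, first start site, chr16:58524254-58524503, minus strand: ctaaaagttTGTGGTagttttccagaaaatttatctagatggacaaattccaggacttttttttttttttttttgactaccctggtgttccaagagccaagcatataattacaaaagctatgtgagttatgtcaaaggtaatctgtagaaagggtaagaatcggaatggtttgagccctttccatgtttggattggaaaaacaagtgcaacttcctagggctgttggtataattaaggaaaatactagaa
St3gal6, second start site, chr16:58523427-58523676, minus strand: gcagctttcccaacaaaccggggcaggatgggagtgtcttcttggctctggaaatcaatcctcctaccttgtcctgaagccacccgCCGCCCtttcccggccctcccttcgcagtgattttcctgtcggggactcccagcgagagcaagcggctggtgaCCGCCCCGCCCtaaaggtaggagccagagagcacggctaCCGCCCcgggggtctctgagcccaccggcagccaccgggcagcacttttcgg
Of the 6 motifs, the St6galnac3 and St8sia1 windows each held GGGCGG once and no other. The second St3gal6 window held GGGCGG at 4 positions, and the first held TGTGGT once. GGGCGG occurred in 32.7% of the 32851 promoter windows of this length and TGTGGT in 14%. The first St3gal6 window had 1 CG dinucleotide and the second 16, while St6galnac3 had 16 and St8sia1 14. Over all windows the median was 6, with quartiles of 2 and 16. A match is a description of these letters.

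The Treg to Tconv change was not shown to differ between the strains for any of the 24 tested probe sets. With limma, 0 of 24 were called for the difference of the changes, against 0.0933% of all probe sets (0.0533% higher and 0.04% lower). At an unadjusted p under 0.05 there were 3 of 24, beside 2043 of all 45037 probe sets. The count stayed at 0 in each alternative fit that was run. St8sia1 1455695_at had the largest difference, 1.01 (NOD minus B6g7, 95% interval 0.25 to 1.77, limma adjusted p = 0.962). Its interval is wide, and 1419695_at of the same gene gave 0.48 (0.04 to 0.92). For St6galnac3 1440121_at the difference was 0.06 (-0.73 to 0.85) and for St3gal6 1449078_at -0.12 (-0.67 to 0.44).

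St6gal1, St8sia6 and St6galnac6 did not pass in any comparison. St6gal1, whose product is the ligand of the B cell siglec CD22, read between 13.40 and 13.51 in all 12 arrays by probe set 1420928_at. Its Treg minus Tconv change was -0.04 (95% interval -0.19 to 0.12) in B6g7 and -0.02 (-0.17 to 0.14) in NOD. The other St6gal1 probe set, 1420927_at, read between 6.71 and 7.22. St8sia6, which extends sialic acid on O-glycans into siglec ligands, read between 12.35 and 12.62 by 1456440_s_at, with changes of 0.06 (-0.14 to 0.26) and -0.01 (-0.21 to 0.18). Its other probe sets read 11.58 to 12.03 (1456147_at) and 9.01 to 9.64 (1438566_at). These intervals bound the change and do not show that the groups are equal.

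The remaining 10 sialyltransferases of the family, each by its brightest probe set, gave 1 call higher and 0 lower in B6g7 Treg, 10% against 3.37% of all probe sets, which at 10 genes is 1 call. In NOD 0 were called by limma, and 0 had an unadjusted p under 0.05, beside 4863 of all 45037 probe sets. The 1 gene was St3gal5, which makes the ganglioside GM3. St3gal5 1449198_a_at read 7.75 or more in the 3 arrays of B6g7 Treg, above 7.55, 7.36 and 7.46 in B6g7 Tconv (0.42 ± 0.10, limma adjusted p = 0.0343). In NOD Treg it read 7.45, 7.30 and 7.49, lower than in B6g7 Treg (-0.47 ± 0.10, limma adjusted p = 0.0196) and overlapping NOD Tconv. Its second probe set, 1460241_a_at, did not pass in any comparison. By all 18 probe sets of these genes, 1 more was called, St6galnac1 1421517_at, dim in all groups, between strains in Tconv. The median change of the 10 genes averaged over strains was 0.04, against -0.01 for all probe sets.

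Averaged over strains, 1 of 7 genes of sialic acid supply, 1 of 3 sialidases, 1 of 20 genes of acceptor glycan synthesis and 0 of 10 carriers and lectins were called, beside 5.84% of all probe sets, so these counts say little about the lists. Of 7 genes of sialic acid supply, Cmah alone was lower in Treg averaged over strains (-0.39 ± 0.07, limma adjusted p = 0.00261). Within NOD 0 of the 7 were called, with Cmah means of 13.13 in Tconv and 12.83 in Treg. Cmah, which converts the common form of CMP-sialic acid into the glycolyl form, read 12.85, 12.92 and 12.75 in B6g7 Tconv and 12.37, 12.31 and 12.37 in B6g7 Treg. It was higher in NOD Treg (12.88, 12.72 and 12.89) than in B6g7 Treg, by 0.48 ± 0.10 (limma adjusted p = 0.013). Of 3 measured sialidases, Neu3, which acts on gangliosides, was higher in Treg averaged over strains by 0.28 ± 0.07 (limma adjusted p = 0.0367). Within each strain 0 of the 3 were called. Of 20 measured genes of acceptor glycan synthesis, Mgat5, which builds the branched N-glycans that galectins bind, was the 1 called averaged over strains. Mgat5 was higher in NOD Treg by 0.79 ± 0.15 (limma adjusted p = 0.00855) and at 0.54 in B6g7 (limma adjusted p = 0.078). Of 10 measured carriers and sialic acid lectins, limma called 0 in any of the 6 comparisons. At an unadjusted p under 0.05 there were 1 in B6g7, 0 in NOD, 0 averaged over strains and 0 for the difference of the changes. Between strains there were 1 in Tconv and 0 in Treg. For all 45037 probe sets these counts were 5273, 4863, 6362, 2043, 4752 and 4732 in the same order. Neu4 and Ggta1 were not analysed here.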

How the data were processed

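Affymetrix arrays were run on RNA of 12 pools, extracted with Trizol and amplified in 2 rounds, per the labels. The authors deposited linear intensity values normalized by RMA, as the submitters' processing notes name it; its version is not given in the sources used here. Log2 was taken with no pseudocount or filter, after 64 control probe sets were left out, which gave 45037 probe sets. limma 3.58.1 in R 4.3.3 (lmFit with 4 group means, eBayes) was fitted on all 12 arrays. P-values were adjusted by Benjamini-Hochberg over all probe sets and called under 0.05. The fit was tested on simulated data with independent noise in each array and changes planted in B6g7 Treg alone. Noise shared by same-numbered arrays was not simulated. Each of the 26 member probe sets is accounted for; pathway genes, at their brightest probe set, are named where called. The members and lists were chosen with earlier results of these data known.

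Replicate numbers 1 to 3 are shared by the groups, and the CEL file numbers in the labels run in 3 sets of 4 that match them. Deviations of same-numbered arrays correlated over 0.1 in every pair for NOD Tconv with NOD Treg (0.31 to 0.56) and for B6g7 Treg with NOD Treg (0.3 to 0.67). In B6g7 Tconv with B6g7 Treg they ran from -0.08 to 0.52 and in B6g7 Tconv with NOD Tconv from -0.04 to 0.44. The main fit used no block in any comparison. Its p-values thus leave the pairing out, also in NOD and between strains in Treg, where every pair was over 0.1. The replicate block was fitted as an alternative. The other alternatives were fewer arrays, array weights, a filter on dim probe sets, quantile normalization, median centring, a pseudocount of 32, the actin difference as a covariate, each array or replicate number left out, and the mean over a gene's probe sets. The number of arrays limits the precision. The series text calls the replicates independent pools.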

Additional observations from a re-analysis of the deposited data

Results flagged for a closer look

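St6galnac2 1417616_at was higher in every B6g7 Treg array than in any B6g7 Tconv array, and lower in every NOD Treg array than in any NOD Tconv array. The difference of the 2 changes, NOD minus B6g7, was -1.89 (log2). This difference was not tested, since it chose the family, and the other St6galnac2 probe set gave 0.33.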

How the results depend on the processing

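Of 28 calls among the 24 tested probe sets over the 6 comparisons, 22 passed in every fit without 1 array. The actin covariate, array weights and the replicate block each kept 28 of 28; the filter on dim probe sets kept 27 of 27, median centring 27 of 28, quantile normalization 26 of 28 and the pseudocount 26 of 28, and the compared arrays alone kept 16 of 18. None of these reversed a call. With the replicate block 9 probe sets were called in B6g7, 8 in NOD, 10 averaged over strains, 0 for the difference of the changes, 2 between strains in Tconv and 2 in Treg; beside the 3 added calls given above it changed no other call. With only the compared arrays 1 was called between strains in Treg. Leaving out 1 array or 1 replicate number gave 4 to 7 calls in B6g7, 3 to 7 in NOD, 5 to 10 averaged over strains and 1 to 2 between strains in Treg; fits without a replicate number used fewer arrays. Without replicate 1, of whose 4 arrays 3 had the lowest actin difference of their group, the counts were 5, 5, 8, 0, 2 and 1 in the order above. The mean over both probe sets turned the sign of the brighter St6galnac4 probe set to -0.586 in Tconv and -0.59 in Treg. St6galnac2 1417616_at ranged from 2.91 to 3.54 between strains in Tconv and from -1.53 to -1.37 between Treg and Tconv in NOD. In B6g7 the Treg minus Tconv value of St6galnac2 1417616_at, 0.41, ranged from 0.26 (without replicate 3) to 0.52 (without replicate 1), and the mean over both St6galnac2 probe sets was 0.09.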
